A study of Mus musculus with 4 samples.

Results

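The genes described here encode the enzymes that place, copy and remove methyl groups on cytosine in DNA. They are the DNA methyltransferases Dnmt1, Dnmt3a and Dnmt3b, the oxidising enzymes Tet1, Tet2 and Tet3, and Uhrf1, the partner of Dnmt1. They were chosen by name and not by a rule on measured values, 7 of the 23906 gene symbols in the expression files. Earlier results of these data were known when the choice was made. RNA was sequenced from phenotypic haematopoietic stem cells (HSCs) of BRE-GFP transgenic mice, in which a BMP responsive element drives GFP, so that a GFP+ cell was receiving a BMP signal when it was isolated. The cells were LSK-SLAM cells, the Lin- Sca1+ cKit+ CD150+ CD48- population, taken from the fetal liver (FL) at embryonic day 14 and from adult bone marrow (BM), and each was sorted into a GFP+ (BMP-activated) and a GFP- (non-BMP-activated) fraction. This gave 4 groups, FL GFP+, FL GFP-, BM GFP+ and BM GFP-, with 1 library a group, so a difference between any pair of libraries has no replicate check. All 4 groups carried the transgene on a C57BL/6 background, none was treated, and the adult age and the number of animals behind a library are not given in the sources used here. A GFP- cell may therefore have responded to BMP earlier in its history. The study used more than 1 transgenic line and states that it shows the first.

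In mammals most DNA methylation lies on cytosines followed by guanine (CpG). Dnmt3a and Dnmt3b methylate sites that carry no mark. Dnmt1 copies the mark to the new strand after replication, and Uhrf1 binds the half-methylated site and brings Dnmt1 to it. The Tet enzymes oxidise methylcytosine, from which the unmodified base can be restored by repair or by dilution through cell division. In blood, loss of Dnmt3a or Tet2 is known to expand stem cells at the expense of differentiation, Dnmt1 is needed to maintain HSCs, and Dnmt3b is known as the methyltransferase of early embryos.

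By the mouse genome assembly NCBI37/mm9 (GENCODE vM1), Dnmt1 lies on chromosome 9 from 20711650 to 20757317 (minus strand) and Uhrf1 on chromosome 17 from 56442744 to 56462909 (plus strand). Dnmt3a lies on chromosome 12 from 3806007 to 3914443 and Dnmt3b on chromosome 2 from 153475186 to 153513466, both on the plus strand. The Tet genes all lie on the minus strand, Tet1 on chromosome 10 from 62267318 to 62361866, Tet2 on chromosome 3 from 133126643 to 133207354 and Tet3 on chromosome 6 from 83312367 to 83391672. The annotation lists 18 transcripts of Dnmt3a and 12 of Dnmt3b, and the files give a single value per gene, so isoforms could not be told apart. Dnmt3aos, annotated antisense to Dnmt3a, was at 0.0605 FPKM in the GFP+ and 0.103 in the GFP- cells of FL, and at 0 in both BM libraries.

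The RefSeq promoter table (GRCm38.p6) held all 7 genes, with 12 start sites between them. Sequence upstream of the gene is shown for Dnmt3b, the gene with the largest stage difference among the 7, and for Tet1 and Uhrf1, a gene of the same direction at a low level and one with a small difference at a high level. CpG sites, where the encoded enzymes act, are in capitals, each sequence is written 5′ to 3′ on the strand of its gene, and a stretch ends where the outermost RefSeq transcript begins, which leaves out the last 38 bases of the 250-base window of Dnmt3b and the last 145 of that of Tet1. No methylation was measured in these cells.
Dnmt3b, chr2:153649199-153649410, plus strand: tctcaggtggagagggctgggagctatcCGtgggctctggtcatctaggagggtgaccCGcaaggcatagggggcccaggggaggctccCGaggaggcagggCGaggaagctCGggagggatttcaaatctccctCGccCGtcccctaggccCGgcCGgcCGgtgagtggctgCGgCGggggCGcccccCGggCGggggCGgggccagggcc
Tet1, chr10:62887470-62887574, minus strand: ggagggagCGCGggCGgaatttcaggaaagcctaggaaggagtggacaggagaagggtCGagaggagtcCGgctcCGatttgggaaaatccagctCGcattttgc
Uhrf1, chr17:56303087-56303336, plus strand: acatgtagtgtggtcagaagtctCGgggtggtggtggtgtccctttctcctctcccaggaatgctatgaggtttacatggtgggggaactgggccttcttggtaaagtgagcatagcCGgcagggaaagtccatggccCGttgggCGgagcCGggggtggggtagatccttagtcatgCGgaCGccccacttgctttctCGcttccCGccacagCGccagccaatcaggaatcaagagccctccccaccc
The stretches hold 16 CpG sites in 212 bases for Dnmt3b, 7 in 105 for Tet1 and 10 in 250 for Uhrf1. The whole windows hold 21 sites for Dnmt3b and 15 for Tet1, and the window of the other Uhrf1 start, not printed, holds 30. Over all 32851 RefSeq windows of 250 bases upstream of a start, the median was 6 sites, with quartiles of 2 and 16.

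Dnmt1 and Uhrf1 act at replication, and E2F is the family of factors best known for driving replication genes, so its letters were searched in the same windows. The words searched on both strands were TTTCCCGC, TTTCGCGC, TTTGCCGC and TTTGGCGC, and 1.86% of all windows hold at least 1 of them. Of the 12 windows of the 7 genes, 1 of Dnmt1 and 1 of Uhrf1 held a match, both to TTTCGCGC, while no window of Dnmt3a, Dnmt3b or a Tet gene held these letters. The matches are shown in capitals, the one of Dnmt1 reading on the other strand, and they are descriptions of the sequence, not bound sites.
Dnmt1, chr9:20952824-20952853, minus strand: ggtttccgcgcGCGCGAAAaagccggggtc
Uhrf1, chr17:56304117-56304146, plus strand: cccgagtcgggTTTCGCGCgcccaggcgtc

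Expression was deposited as FPKM, sequenced fragments scaled to transcript length and library size, which allows levels of different genes to be compared per length. The files hold no read counts, so no counting error can be given for a value, while between 12372 and 17345 genes were above 0 in a library. The 8 fetal regulator genes fixed as a check of the stage, such as Lin28b and Igf2bp1, were all over 2-fold higher in FL in both fractions, beside 5.28% of all symbols. Of 5 BMP target genes, 4 were over 2-fold higher in GFP+ than in GFP- cells in BM, beside 13.4% of all symbols. In FL 0 were, beside 11.1%, and no row for GFP was in the files. The BM GFP+ library stood apart from its label in several marker genes, though not in all. Kit, the receptor used to sort the cells, was at 22.2 FPKM there and at 76.6 to 150.3 in the other libraries. Procr, a surface marker of stem cells, was at 0 against 60.8 to 113, and Cd48, which the sort excludes, was at 267 against 17.4 to 126. Slamf1, the gene of CD150, was at 4.74 against 6.47 to 12.6. Ly6a, the gene of Sca1, went with the label, at 286 FPKM there against 19.7 to 146. Many markers of mature cells moved with the stage as well. The summed FPKM of 8 granulocyte genes was 587 and 310 in the GFP+ and GFP- cells of FL but 57711 and 16947 in those of BM. All 8 were over 2-fold higher in BM in both fractions, beside 8.44% of all symbols. All 6 B-cell genes and all 6 T- and NK-cell genes behaved likewise, with Ebf1, Pax5, Cd3e, Cd3g and Gzma listed at 0 in both FL libraries. The erythroid sum was at 1005 and 908 FPKM in FL and at 20432 and 2849 in BM. The macrophage sum was at 59.0 and 39.1 in FL and at 293 and 104 in BM, and the megakaryocyte sum at 61.9 and 74.7 in FL and at 390 and 464 in BM. Past 2-fold higher in BM in both fractions were 4 of 8 erythroid, 5 of 8 macrophage and 4 of 6 megakaryocyte genes. In BM GFP+ few genes carried most of the erythroid and megakaryocyte sums, Hbb-b1 at 14659 and Hba-a1 at 5151 FPKM, and Pf4 at 245. Gp9 and Vwf of the megakaryocyte list were higher in FL in both fractions, as were Epor and Ermap in GFP+ and Slc4a1 in GFP- cells. The summed B-cell genes were at 96.3 and 43.5 in FL and at 2983 and 801 in BM, and the T- and NK-cell genes at 22.8 and 15.5 in FL and at 593 and 373 in BM. In bulk RNA, fewer cells of a type and less RNA per cell cannot be told apart, and the part of these cells in the values below was not tested.

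The 7 genes ranged from 1.33 to 177 FPKM, and in every library Dnmt3a lay below Dnmt1, Dnmt3b and Uhrf1 and above the Tet genes. Dnmt1, the maintenance methyltransferase, was at 167 FPKM in GFP+ and 106 in GFP- cells of FL, and at 64.0 in GFP+ and 57.3 in GFP- cells of BM. Uhrf1, which directs Dnmt1 to replicated DNA, was at 172 and 127 FPKM in the GFP+ and GFP- cells of FL, and at 104 and 74.7 in those of BM. For both genes the FL libraries were above the BM libraries and the GFP+ library was the higher of each tissue. Dnmt3a, a de novo methyltransferase and a frequent target of mutation in clonal haematopoiesis, was at 35.4 FPKM in GFP+ and 23.4 in GFP- cells of FL, and at 8.61 and 4.99 in those of BM. Dnmt3b, its close relative, was at 177 FPKM in GFP+ and 176 in GFP- cells of FL, and at 15.5 and 17.6 in those of BM. The FL values of Dnmt3b nearly coincide and so do the BM values, with a wide gap between the tissues.

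The Tet genes were the lowest of the 7 in every library, between 1.33 and 6.02 FPKM. Tet1, known best from embryonic stem cells and germ cells, was at 5.44 FPKM in GFP+ and 6.02 in GFP- cells of FL, and at 1.73 and 1.33 in those of BM. Tet2, the family member most often mutated in blood, was at 3.50 and 2.41 FPKM in the GFP+ and GFP- cells of FL, and at 2.41 and 1.45 in those of BM. Tet3 was at 5.81 FPKM in GFP+ and 3.64 in GFP- cells of FL, and at 2.55 and 1.56 in those of BM. The lower FL value of Tet1 was over 3 times its higher BM value. The lower FL value of Tet3 was above its higher BM value by a smaller ratio than that between its fractions in either tissue. Tet2 in FL GFP- was barely above Tet2 in BM GFP+ (2.414 against 2.410 FPKM). Tet2 was the least expressed of the 7 in both FL libraries and Tet1 in both BM libraries.

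**Figure D1:**
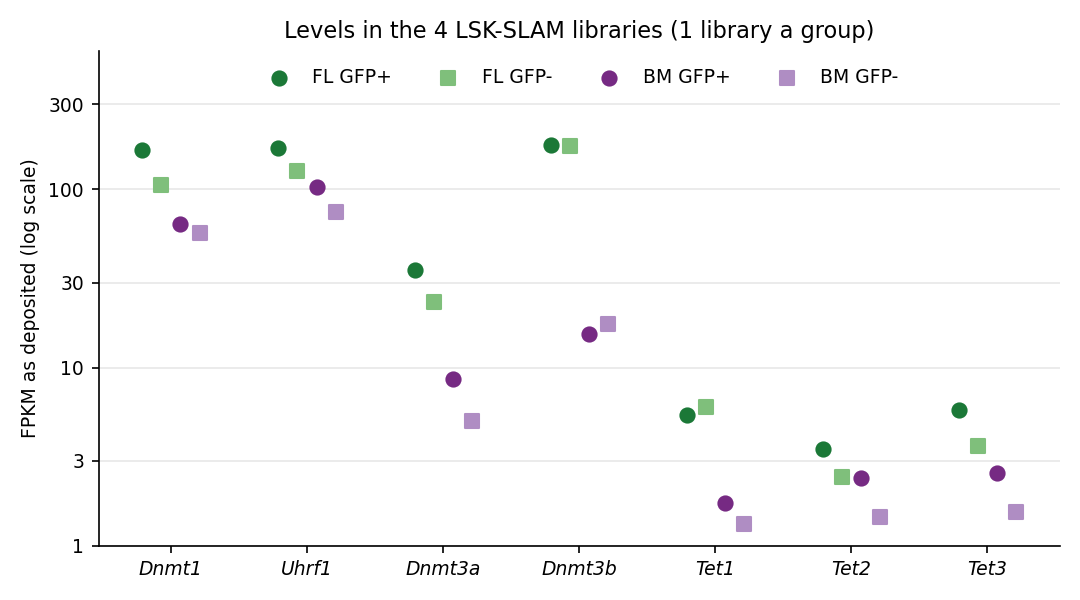
FPKM of the 7 genes in the 4 libraries on a log axis, 1 point a library, circles for GFP+ and squares for GFP-, green for FL and purple for BM. Dnmt3b is the highest gene in both FL libraries (177 and 176 FPKM) and below Uhrf1 and Dnmt1 in both BM libraries (15.5 and 17.6 FPKM), and every Tet value lies between 1.33 and 6.02 FPKM.

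The order of the genes by level differed between the tissues. In both FL libraries it ran Dnmt3b, Uhrf1, Dnmt1 and Dnmt3a from high to low, and in both BM libraries Uhrf1, Dnmt1, Dnmt3b and Dnmt3a. Among all 23906 symbols Dnmt3b ranked 612 in GFP+ and 486 in GFP- cells of FL, but 5607 and 5005 in those of BM. Uhrf1 ranked 631 and 717 in the GFP+ and GFP- cells of FL, and 1365 and 1698 in those of BM. The neighbours Dnmt3b, Uhrf1 and Dnmt1 in FL GFP+ lay within 10 FPKM of each other, and with 1 library a group no spread was available to separate them.

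The comparison of FL with BM asks how expression of the methylation machinery differed between fetal and adult HSCs of the same reporter state. All 7 genes were higher in FL than in BM in both fractions, and for all 7 both FL values were above both BM values, which held for 21.3% of the 12022 genes with a mean of at least 1 FPKM. Dnmt3b differed most, 11.5-fold in GFP+ and 9.98-fold in GFP- cells. Dnmt3a was 4.11-fold and 4.69-fold higher in FL, and Tet1 3.14-fold and 4.53-fold. Tet3 was 2.28-fold higher in FL in GFP+ and 2.34-fold in GFP- cells, and Dnmt1 2.61-fold and 1.85-fold. The smallest stage differences were those of Uhrf1, 1.66-fold and 1.70-fold, and of Tet2, 1.45-fold and 1.67-fold.

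By a 2-fold rule on FPKM, 5 of 7 genes were higher in FL in GFP+ cells, beside 16.8% of all 23906 symbols, and 4 of 7 in GFP- cells, beside 16.9%. The 4 genes past 2-fold in both fractions were Dnmt3a, Dnmt3b, Tet1 and Tet3, beside 5.28% of all symbols. Among genes with a mean of 1 to 10 FPKM, the range of the Tet genes, 11.4% were past 2-fold in both fractions, and among those of 10 to 200 FPKM, the range of the other members, 5.09%. On the log2(FPKM + 1) scale the median difference of the 7 genes was 1.24 in GFP+ and 0.88 in GFP- cells, beside -0.03 and -0.03 over 13609 expressed genes. With the libraries set to the same FPKM total the median gene moved towards FL by 0.26 and 0.34, and all 7 genes were then past 2-fold in both fractions. This scaling moves expressed genes as a whole towards FL, and no share of all symbols past 2-fold is given for it.

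The comparison within GFP- cells does not use the BM GFP+ library. FL GFP+ set against BM GFP-, a choice made after seeing the data, had all 7 genes over 2-fold higher in FL, beside 13.2% of all symbols, but it changes the fraction along with the tissue, and its direction follows from the lack of overlap given above. BM GFP- also carried the granulocyte and B-cell genes, at lower sums than BM GFP+.

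**Figure D2:**
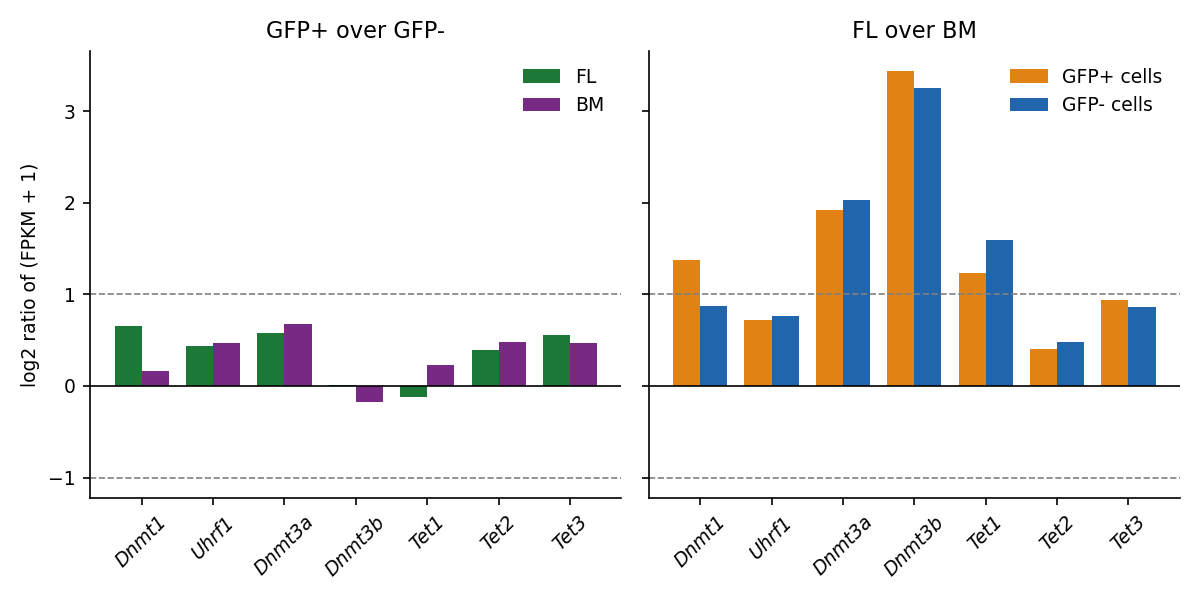
Bars give the log2 ratio of (FPKM + 1) for each gene, on the left GFP+ over GFP- in FL and BM and on the right FL over BM in GFP+ and GFP- cells, 1 library against 1 with no error, and dashed lines at a log2 ratio of 1 and -1. All 14 bars on the right point upwards, with Dnmt3b at 3.44 and 3.25, and no bar on the left reaches a dashed line. The added 1 lowers the ratios of low genes, so the Tet3 bars at 0.94 and 0.86 stay under the line although its FPKM differ by over 2-fold.

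A fit over all 4 libraries gave the only test of stage, without a repeat library of any group. The limma model held a term for tissue and a term for fraction, so that the fractions served as a pair of observations per tissue with 1 residual degree of freedom, and the variance was moderated across 11707 genes with at least 1 FPKM in at least 2 libraries. Dnmt3b was 3.34 higher in FL on the log2(FPKM + 1) scale (SE 0.40, 95% interval 2.44 to 4.25), with an adjusted p of 0.00397 by limma, and it was 1 of 34 genes called higher in FL (0.290% of the genes tested). The other 6 genes did not pass. Dnmt3a differed by 1.97 (SE 0.69, limma adjusted p = 0.191) and Dnmt1 by 1.12 (SE 0.36, limma adjusted p = 0.159). Both had an unadjusted limma p under 0.05, as 17.2% of all genes tested did in either direction and 4.48% did with the higher level in FL. Tet1 differed by 1.41 (SE 0.87, limma adjusted p = 0.450) and Tet3 by 0.90 (SE 0.87, limma adjusted p = 0.659). For Uhrf1 the difference was 0.74 (95% interval -0.01 to 1.49) and for Tet2 0.44 (95% interval -1.44 to 2.32), intervals that reach past a 2-fold difference.

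The call of Dnmt3b rested on how the variance was estimated. Without the trend of variance on level, limma called 0 genes (1581 had an unadjusted p under 0.05) and gave Dnmt3b an adjusted p of 0.142. Leaving out a library at a time, with the tissue term alone, kept the difference of Dnmt3b between 3.25 and 3.43, but its limma adjusted p was 0.0944 without FL GFP+, 0.0782 without FL GFP-, 0.312 without BM GFP+ and 0.267 without BM GFP-. Over all alternatives its adjusted p by limma ran from 0.00248 to 0.312.

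**Figure D3:**
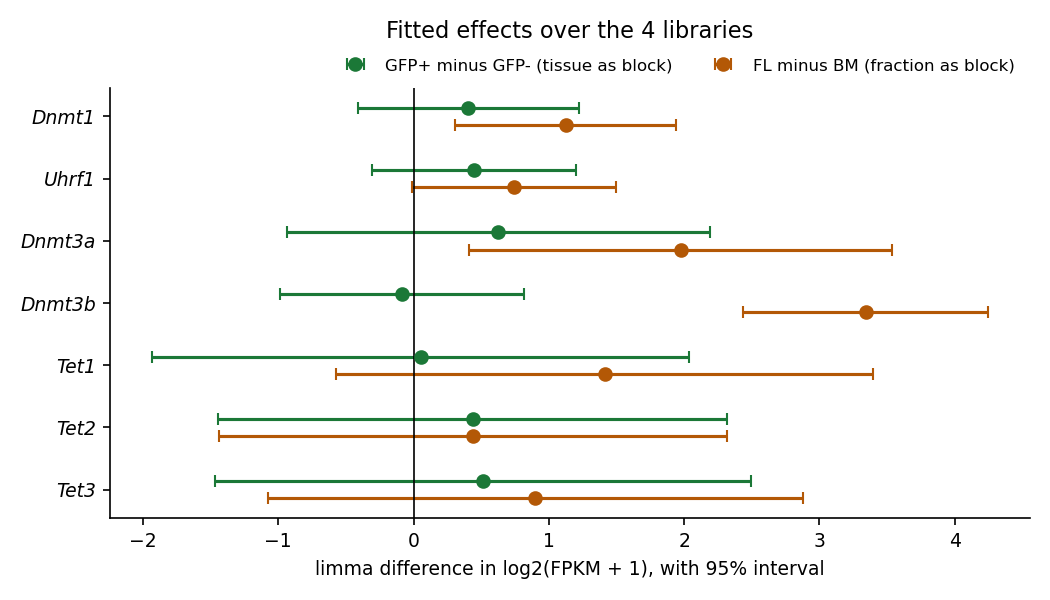
Points give the limma difference in log2(FPKM + 1) for each gene with its 95% interval, green for GFP+ minus GFP- and brown for FL minus BM. The brown interval of Dnmt3b runs from 2.44 to 4.25, and every green interval includes 0.

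The comparison of GFP+ with GFP- asks whether BMP-activated and non-BMP-activated HSCs differ in these genes. The differences were small in both tissues, and no gene of the 7 was past 2-fold. In FL, Tet3 was 1.60-fold, Dnmt1 1.58-fold, Dnmt3a 1.51-fold, Tet2 1.45-fold and Uhrf1 1.35-fold higher in GFP+ cells. Dnmt3b stood at a ratio of 1.01 and Tet1 at 0.903 in FL. In BM, Dnmt3a was 1.72-fold, Tet2 1.67-fold, Tet3 1.64-fold, Uhrf1 1.39-fold and Tet1 1.30-fold higher in GFP+ cells, Dnmt1 stood at 1.12 and Dnmt3b at 0.878.

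The 0 of 7 past 2-fold compares with 37.0% of all symbols in FL and 40.7% in BM, either direction, among genes of 10 to 200 FPKM with 27.2% in FL and 25.5% in BM, and among those of 1 to 10 FPKM with 61.4% and 56.8%. The study's rule of a difference past 2-fold in the same direction in both tissues, which 1.98% of all symbols met for GFP+ and 10.3% for GFP-, was met by 0 of 7. Dnmt1, Dnmt3a, Tet2, Tet3 and Uhrf1 were higher in GFP+ cells in both tissues by some amount, 5 of 7 beside 14.3% of all symbols, 31.1% of genes of 10 to 200 FPKM and 19.1% of those of 1 to 10 FPKM. With the libraries set to the same FPKM total, Dnmt1 turned in BM to a log2 ratio of -0.29 and 4 of 7 were left. No gene of the 7 had both GFP+ values above both GFP- values, since the stage differences were the larger, and this pattern held for 14.2% of genes with a mean of at least 1 FPKM.

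In the limma fit 0 of 7 genes were called for the fraction, at an adjusted p or at an unadjusted p under 0.05, beside 13 of 11707 genes called (0.111%) and 6.25% at the unadjusted level. The estimates ran from -0.08 for Dnmt3b (95% interval -0.99 to 0.82) to 0.63 for Dnmt3a (95% interval -0.94 to 2.19). For Dnmt1 the interval was -0.41 to 1.22 and for Uhrf1 -0.30 to 1.20, so differences of 2-fold were within what the 4 libraries allow. Adjusted p-values from limma were between 0.970 and 0.997. In BM the granulocyte, B-cell and erythroid sums were also higher in GFP+ cells, and in FL the summed hepatocyte genes were at 361 FPKM in GFP+ and 28.8 in GFP- cells. The part of these cells in the GFP ratios was not tested.

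Ratios between the genes within a library do not depend on how the libraries were scaled. Of the summed FPKM of the 3 methyltransferases, Dnmt3b made up 46.6% in GFP+ and 57.6% in GFP- cells of FL, but 17.5% and 22.1% in those of BM. Dnmt1 made up 44.0% and 34.7% in FL and 72.7% and 71.7% in BM, and Dnmt3a between 6.25% and 9.77% in every library. The share held by Dnmt3b was thus larger in FL and that held by Dnmt1 larger in BM, without overlap between the tissues.

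Of the summed Tet FPKM, Tet1 made up 36.9% in GFP+ and 49.9% in GFP- cells of FL, against 25.9% and 30.7% in those of BM. Tet2 made up 23.7% and 20.0% in FL and 36.0% and 33.4% in BM. The share of Tet3 lay between 30.1% and 39.4% and overlapped between the tissues. The sum of the methyltransferases was 25.8 and 25.3 times the Tet sum in the GFP+ and GFP- cells of FL, and 13.2 and 18.4 times in those of BM. Uhrf1 and Dnmt1, which act together, stayed closer, Uhrf1 over Dnmt1 being 1.03 and 1.20 in the GFP+ and GFP- cells of FL, and 1.62 and 1.31 in those of BM.

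**Figure D4:**
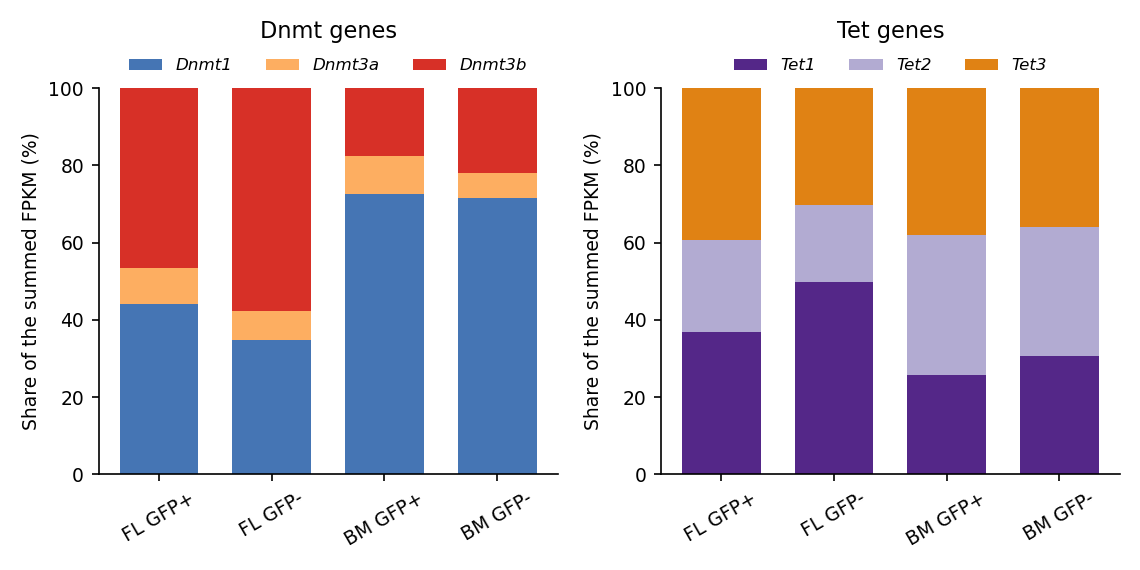
Stacked bars give each gene's share in percent of the summed FPKM of its family, Dnmt genes on the left and Tet genes on the right, 1 bar a library. Dnmt3b holds 46.6% and 57.6% of the Dnmt sum in FL and 17.5% and 22.1% in BM.

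The remaining relatives did not share the pattern of Dnmt3b. Dnmt3l, the catalytically inactive partner of the de novo enzymes in germ cells, was listed at 0 in all 4 libraries. Uhrf2, the relative of Uhrf1, was at 23.6 FPKM in GFP+ and 15.6 in GFP- cells of FL, and at 14.2 and 10.8 in those of BM, and Trdmt1, which methylates transfer RNA, was at 3.29 and 3.07 FPKM in FL and at 3.17 and 4.91 in BM. Neither was past 2-fold in any comparison. Uhrf1 exceeded Uhrf2 by 6.89-fold to 8.14-fold in every library.

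Of 14 genes for partners of Dnmt1 and Uhrf1, 7 were over 2-fold higher in FL in GFP+ cells, beside 16.8% of all symbols. In GFP- cells 1 was, beside 16.9%, and 0 were called by limma for stage or fraction. Ehmt2, a histone methyltransferase, was the gene past 2-fold in both fractions, at 19.4 and 44.2 FPKM in the GFP+ and GFP- cells of FL and at 8.42 and 15.0 in those of BM. Hells, a chromatin remodeller needed for normal DNA methylation, was at 37.3 and 23.7 FPKM in FL and at 9.35 and 16.3 in BM, which is 3.98-fold in GFP+ cells and 1.46-fold in GFP- cells. Usp7, a deubiquitinase that binds Dnmt1 and Uhrf1, was at 12.2 and 5.25 FPKM in the GFP+ and GFP- cells of FL and at 4.58 and 4.19 in those of BM. Pcna, the replication clamp that Dnmt1 binds, was higher in BM by less than 2-fold, at 163 and 149 FPKM in FL and at 229 and 270 in BM.

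The next list held 10 genes of the methyl-CpG-binding domain and related zinc finger families, not all of whose proteins bind methylated DNA. Of these, 2 were past 2-fold higher in FL in both fractions, beside 5.28% of all symbols. In BM 1 was higher, beside 8.44%, and 0 were called by limma. Mbd3, a subunit of the NuRD repressor complex, was at 63.4 and 56.8 FPKM in FL and at 7.80 and 26.7 in BM, and Mbd5 at 5.42 and 2.36 in FL and at 0.822 and 0.846 in BM. Zbtb4, a zinc finger protein and the gene higher in BM, was under 1 FPKM in every library. Mbd2, which binds methylated CpG, was the gene past 2-fold higher in GFP- cells in both tissues, beside 10.3% of all symbols. It was listed at 0 in the GFP+ cells of FL and at 3.31 FPKM in the GFP- cells, and at 0.545 and 2.64 in those of BM.

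Of 17 genes of base excision repair and deamination, which act after the Tet enzymes, 1 was past 2-fold higher in FL in both fractions. Higher in BM were 2, near the share of all symbols, which was 5.28% for FL and 8.44% for BM, with 0 called by limma. Lig3, a DNA ligase, was at 29.8 and 18.6 FPKM in FL and at 6.83 and 8.16 in BM. Neil1, a glycosylase, was at 9.75 and 7.52 FPKM in FL and at 41.8 and 22.4 in BM, and Apobec1, a cytidine deaminase, at 7.22 and 2.98 in FL and at 21.2 and 18.9 in BM. Tdg, the glycosylase that removes oxidised methylcytosine, was at 45.2 and 71.2 FPKM in the GFP+ and GFP- cells of FL and at 47.7 and 41.7 in those of BM, so its stage ratio stayed between 0.947 and 1.71. Of 13 genes for Tet partners and for the enzymes that make or consume their cofactor, 0 were past 2-fold in the same direction in both fractions or in both tissues, and 0 were called.

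Because Dnmt1 and Uhrf1 are expressed with DNA replication, the stage differences were set beside 23 replication genes such as Mcm2 and Rrm1. Their median log2 difference, FL over BM, was 0.56 in GFP+ cells and -0.05 in GFP- cells. In GFP+ cells 5 were past 2-fold higher in FL, beside 16.8% of all symbols, in GFP- cells 0, beside 16.9%, and 0 in both. Uhrf1 lay close to some of them, such as Chaf1a, whose stage ratios were 1.65-fold and 1.77-fold, while Dnmt1, Dnmt3a, Dnmt3b, Tet1 and Tet3 lay above the highest of the 23 in GFP- cells, Pola1 at a log2 difference of 0.81, and Dnmt3a and Dnmt3b above the highest in GFP+ cells, Gins1 at 1.72. Of 14 mitosis genes 0 were past 2-fold in both fractions, with medians of -0.55 and 0.38, and Mki67, a proliferation marker, was at 21.0 and 10.8 FPKM in the GFP+ and GFP- cells of FL and at 30.6 and 7.45 in those of BM. Relative to Pcna, Dnmt3b was at 1.08 and 1.18 in FL and at 0.0674 and 0.0653 in BM, and Dnmt1 at 1.02 and 0.713 in FL and at 0.279 and 0.212 in BM. Pcna itself differed from FL to BM by -0.49 and -0.86 on the log2 scale, below the medians of the replication genes, so these ratios widen the stage gap beyond that in FPKM.

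**Figure D5:**
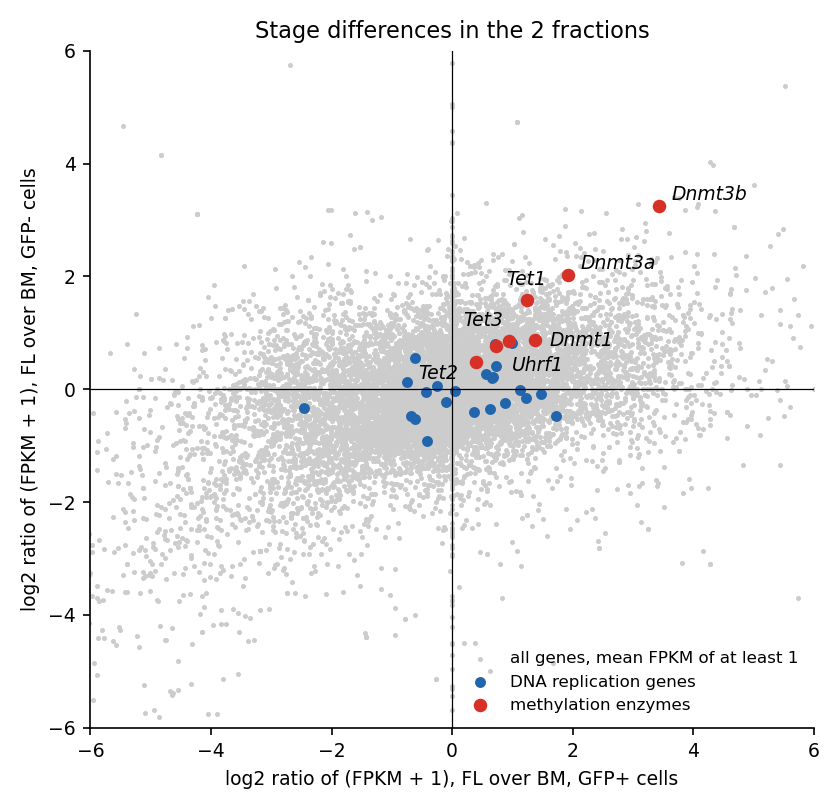
Each point is a gene, with the FL over BM log2 ratio of (FPKM + 1) in GFP+ cells on the horizontal and in GFP- cells on the vertical axis, grey for 12022 genes with a mean of at least 1 FPKM, of which 290 lie outside the axes, blue for 23 replication genes and red for the 7 methylation enzymes. All 7 red points lie above 0 on both axes, with Dnmt3b at 3.44 and 3.25.

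The stem cell genes Kit and Cd34 gave another yardstick, chosen after their values were seen, because they were low in BM GFP+. Relative to Kit, Dnmt3b was at 1.73 in GFP+ and 1.17 in GFP- cells of FL, and at 0.698 and 0.230 in those of BM. Relative to Cd34, a surface protein of stem and progenitor cells, it was at 0.800 and 0.779 in FL and at 0.319 and 0.0969 in BM. Dnmt3b was therefore lower in BM than in FL by both of these ratios, with a smaller gap for BM GFP+ than in FPKM. The same did not hold for the other 6 genes, all of which were above both FL libraries in BM GFP+ when set against Kit. Kit itself was 4.62-fold higher in FL in GFP+ and 1.96-fold in GFP- cells. Any gene with a smaller stage ratio than Kit is therefore higher in BM on this scale, and no share of all genes is given for it. Among them was Dnmt3a, which relative to Kit was at 0.346 and 0.156 in the GFP+ and GFP- cells of FL and at 0.389 and 0.0652 in those of BM. Dnmt1 relative to Kit was at 1.63 and 0.705 in FL and at 2.89 and 0.748 in BM, so the stage difference of Dnmt1 did not keep its direction on this scale. Uhrf1 relative to Kit was at 1.68 and 0.846 in FL and at 4.68 and 0.976 in BM, higher in BM in both fractions. Relative to Cd34, Uhrf1 was at 0.776 and 0.564 in FL and at 2.14 and 0.411 in BM. Dnmt1 relative to Cd34 was at 0.755 and 0.470 in FL and at 1.32 and 0.315 in BM. Against Cd34 both genes were therefore higher in BM in GFP+ cells but higher in FL in GFP- cells. The Tet genes relative to Kit were higher in BM than in FL in GFP+ cells, Tet1 at 0.0782 against 0.0532, Tet2 at 0.109 against 0.0342 and Tet3 at 0.115 against 0.0568. In GFP- cells Tet1 was at 0.0174 in BM against 0.0401 in FL, Tet2 at 0.0189 against 0.0161 and Tet3 at 0.0203 against 0.0242.

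The genes nearest to each member in profile were found among 8311 genes with at least 1 FPKM in all 4 libraries, by the root mean square distance between log2(FPKM + 1) values centred on their mean. With 4 libraries many genes lie close by, so the names are a description. Nearest to Dnmt3b were Tnfrsf25 (0.24), Ttpa (0.27) and Thsd1 (0.33), and no other member lay nearer than Dnmt3a at 0.77. For Dnmt3a they were Igf1, Galnt7 and Ift122, at distances of 0.11, 0.11 and 0.16. Nearest to Dnmt1 were Pprc1, Plagl2 and Bap1, all within 0.03, and nearest to Uhrf1 were Agpat1 (0.03), Chaf1a (0.04) and Hnrnpd (0.05). For Tet1 the nearest were Pld6, Zfp319 and Mir6357, for Tet2 Mllt6, Alyref and Prpf18, and for Tet3 Fam98c, Usp54 and Mybbp1a. Uhrf1 and Tet3 were each other's nearest member, at 0.09, and Dnmt3b had the largest distance to its nearest member.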

How the data were processed

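RNA from the 4 sorted LSK-SLAM groups was made into libraries with a full-length cDNA kit and sequenced by the authors, who aligned reads with TopHat and Bowtie and estimated expression with Cufflinks and Cuffnorm under geometric normalisation. The submitters' processing notes name Cufflinks 2.2.1. The deposited values are FPKM per gene symbol, 1 file a library. The methods name NCBI37/mm9 and the processing notes mm10, so gene positions, taken by symbol from GENCODE vM1 on NCBI37/mm9, play no part in any value. The study states the uniquely mapped reads of each library, which are not in the files and were not used here, and full-length cDNA amplified from sorted cells can make low FPKM values unsteady. Of the 23906 symbols, 597 shared all 4 values with another symbol, and 0 of these were among the 7 genes.

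FPKM were analysed as log2(FPKM + 1), a scale that understates changes of low genes. Ratios between single libraries have no test, and a fold threshold of 2 was applied to FPKM. The only test was limma 3.58.1 (R 4.3.3) with tissue and fraction terms and a variance trend, on genes with at least 1 FPKM in at least 2 libraries, with Benjamini-Hochberg adjustment over all genes tested, and it was tested on simulated data. Its p-values rest on how far the stage difference varied between the fractions, or the fraction difference between the tissues, with the variance moderated across genes. They do not measure the spread between animals or between repeat libraries of a group, of which there were none. Alternatives were a pseudocount of 0.1, no filter, no trend, no block, other scalings and other fold thresholds. Genes named from the pathway lists were past 2-fold in the same direction in both fractions or both tissues, at most 4 a list and direction, with Pcna, Usp7, Hells, Tdg and Mki67 always named, and some genes under this rule are not reported here. The members, lists and tests were chosen with earlier results of these data known.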

Additional observations from a re-analysis of the deposited data

Results flagged for a closer look

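Dnmt3b and Tet1 moved in opposite directions between the GFP fractions of FL and BM, and the difference between the tissues was not tested, since each ratio compares 1 library with 1. The log2(FPKM + 1) ratio of Dnmt3b, GFP+ over GFP-, was 0.009965 in FL and -0.1777 in BM. The ratio of Tet1 was -0.1246 in FL and 0.2292 in BM. With the libraries set to the same FPKM total both ratios of both genes were below 0, Dnmt3b at -0.25 in FL and Tet1 at -0.04 in BM.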

How the results depend on the processing

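Over 196 recomputed values of the 7 genes, 179 kept their direction and their side of the threshold, 6 turned direction, 6 passed the 2-fold threshold only under the alternative and 5 no longer passed. Those that turned were Dnmt3b in FL GFP+ over GFP- (-0.25 at the same FPKM total and -0.21 at the same upper quartile), Dnmt1 and Tet1 in BM GFP+ over GFP- (-0.29 and -0.04 at the same total) and Tet1 in the limma GFP effect (-0.20 and -0.08). Leaving out the trend, the block or the filter does not change a limma estimate, so the values under these settings could not turn direction. The 5 that no longer passed were the limma stage call of Dnmt3b without the trend and without each library. A fold threshold of 1.5 gave 3 of 7 genes for GFP in FL, 3 in BM, 2 in both and 7 for stage in GFP- cells. A threshold of 4 gave 2 for stage in GFP+ cells, and the same FPKM total gave 7 for stage in both fractions. No share of all symbols is given for these alternatives, so the counts are not read as a result about the 7 genes. The limma GFP effect called 13 genes, and 0 without the trend (685 at an unadjusted p under 0.05), 4 without the tissue block and 1 with a pseudocount of 0.1. The stage effect called 288 genes, and 0 without the trend, 176 without the block, 80 with a pseudocount of 0.1 and 189 without a filter, with 0 of the 7 genes called without the trend. Leaving out each library in turn gave 0 to 95 genes and 0 to 0 of the 7 genes called, with fewer samples in each fit and the lone library of a tissue assumed to vary like the other pair. Of the calls, 5 were higher in GFP+ and 8 in GFP- (3 and 9 at the same FPKM total), and 34 higher in FL and 254 in BM (52 and 164 at the same total). Leaving out libraries, the bands of FPKM, the ratios to Pcna, Kit and Cd34 and the use of BM GFP- for BM GFP+ were chosen after seeing the data. Apart from the construction of those fits, the cause of these changes was not tested. Pairing by animal was not possible with 1 library a group and labels that name no animal. The limma fit paired the libraries only by its blocks, the tissue and the fraction. The files hold no counts, so no counting error could be given for the Tet values near 1 FPKM.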

Other observations

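The genes that supply the methyl donor were looked at beside the enzymes that use it. Of 17 genes of the methionine and folate cycles, 6 were past 2-fold higher in FL and 2 higher in BM in GFP+ cells. All symbols gave 16.8% and 22.3% there. In GFP- cells the counts were 2 and 1, beside 16.9% and 22.5%. Past 2-fold in the same direction in both fractions were 0, and 0 were called by limma for stage or fraction (median log2 differences 0.22 and 0.00). Cbs, which draws homocysteine out of the cycle, was under 1 FPKM in every library. Bub1, a mitotic checkpoint kinase, was past 2-fold higher in GFP- cells in both tissues, at 2.97 and 12.4 FPKM in the GFP+ and GFP- cells of FL and at 1.28 and 14.6 in those of BM.

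Germline genes are a class that DNA methylation is known to keep silent in body cells. Of 12 such genes, 1 reached 1 FPKM in any library and 2 were listed at 0 in all 4. Ddx4, an RNA helicase of germ cells, was at 8.34 FPKM in GFP+ and 17.8 in GFP- cells of FL, and at 0 and 1.67 in those of BM. It was higher in the libraries where Dnmt3b was higher, and its limma stage difference of 3.02 had an adjusted p of 0.134. Sycp3, Brdt and Taf7l, also genes of germ cells, passed the 2-fold rule in the same direction in both tissues or both fractions while staying under 1 FPKM.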
